A study of Mus musculus with 6 samples.

Results

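The expression of 10 genes of the urothelium, the lining of the renal pelvis, ureter and bladder, was examined in ureteric bud cells that lack Dicer. They are the uroplakin genes Upk1a, Upk1b, Upk2, Upk3a and Upk3b, the transcription factor genes Trp63, Grhl3, Pparg and Elf3, and Psca, which encodes a surface antigen. They were chosen by name from the 19296 genes with a probe set of their own, and each of the 10 had 1 such probe set on the array. The cells came from kidneys of E15.5 mouse embryos of mixed strain background, were freed with trypsin and were sorted on the fluorescent protein YFP. Of the 6 arrays, 3 held Dicer mutant cells of the genotype Dicerc/-; Hoxb7Cre; Rosa26YFP, and 3 held control cells, whose genotype is given as wild type. Hoxb7Cre drives Cre in the ureteric bud and its derivatives, Dicerc is a conditional allele that Cre inactivates, the other Dicer allele is null in every cell of the mutant embryo, and Rosa26YFP marks cells in which Cre has acted. Whether the YFP-sorted control cells also carried Hoxb7Cre and Rosa26YFP is not stated in the labels, so an effect of Cre and that of the Dicer genotype cannot be told apart. The labels call the 3 arrays of each genotype biological replicates. Whether an array held cells of a single embryo or of a pool is not given, so the p-values reflect only how these samples spread.

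Uroplakins are membrane proteins that pack into the rigid plaques on the surface of umbrella cells, the outermost cells of the urothelium, where they form part of the barrier to urine. Upk1a and Upk1b are tetraspanins, and each pairs with a partner that crosses the membrane once: Upk1a with Upk2, and Upk1b with Upk3a or Upk3b. In the mouse, Pparg and Grhl3 act in the differentiation of superficial urothelial cells, Elf3 is an epithelial ETS factor, and Trp63 maintains the basal cells of stratified epithelia. The urothelium of the ureter arises from the distal stalk of the ureteric bud, whose branched part forms the collecting ducts. Dicer makes mature miRNAs from their hairpin precursors, and the comparison asked which transcripts differ in bud cells without it.

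The sequences around the annotated starts of 3 uroplakin genes and of Grhl3 are shown because these genes fell in the mutant cells and shared a pattern of levels between arrays, described below. Each is a RefSeq window of build GRCm38.p6, 250 bases before to 50 bases after the start, written 5′ to 3′ in the direction of the gene. Capitals mark a match to a motif searched on both strands.
Upk1a, chr7:30612685-30612984, minus strand: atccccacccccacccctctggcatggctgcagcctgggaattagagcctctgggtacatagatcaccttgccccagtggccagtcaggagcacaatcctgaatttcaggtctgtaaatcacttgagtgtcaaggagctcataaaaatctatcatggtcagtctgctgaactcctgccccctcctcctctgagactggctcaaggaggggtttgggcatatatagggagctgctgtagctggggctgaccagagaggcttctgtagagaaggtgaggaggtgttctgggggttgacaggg
Upk3a, chr15:85016891-85017190, plus strand: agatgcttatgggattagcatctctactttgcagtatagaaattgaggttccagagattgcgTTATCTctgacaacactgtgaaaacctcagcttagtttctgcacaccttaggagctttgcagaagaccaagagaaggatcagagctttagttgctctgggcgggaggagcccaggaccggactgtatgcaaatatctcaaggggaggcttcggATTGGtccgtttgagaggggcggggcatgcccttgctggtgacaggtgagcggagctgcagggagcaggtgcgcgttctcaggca
Upk3b, chr5:136038246-136038545, plus strand: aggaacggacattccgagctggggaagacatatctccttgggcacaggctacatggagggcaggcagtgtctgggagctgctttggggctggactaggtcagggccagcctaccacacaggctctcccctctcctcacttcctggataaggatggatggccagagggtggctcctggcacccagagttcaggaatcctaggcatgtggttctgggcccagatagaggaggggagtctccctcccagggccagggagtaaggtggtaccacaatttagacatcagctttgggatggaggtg
Grhl3, chr4:135573583-135573882, minus strand: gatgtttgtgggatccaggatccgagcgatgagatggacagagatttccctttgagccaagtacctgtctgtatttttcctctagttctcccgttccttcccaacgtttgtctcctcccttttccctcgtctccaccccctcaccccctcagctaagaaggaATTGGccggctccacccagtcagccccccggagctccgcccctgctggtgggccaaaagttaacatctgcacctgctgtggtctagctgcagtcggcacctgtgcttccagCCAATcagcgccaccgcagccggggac
RefSeq windows were at hand for 6 of the 10 genes (these 4, Elf3, and Pparg with 3 windows), 8 windows in all. None of the 8 held the grainyhead core AACNNGTT, which 4.2% of all 32851 windows held, the paired p63 core CATG, repeated after 6 bases of any kind (0.712% of all windows), the PPAR and RXR repeat of AGGTCA with 1 base between the copies (0.0396%) or the ETS letters CCGGAAGT (3.89%). The GATA letters AGATAA were found in the Upk3a window alone, as TTATCT on the strand shown, 188 bases before the start, and in 11.2% of all windows. CCAAT or its reverse complement ATTGG lay in the Upk3a and Grhl3 windows above, in the Elf3 window and in 2 of the 3 Pparg windows, against 37.4% of all windows. TATAAA was found in 1 Pparg window, only as its reverse complement TTTATA in the direction of the gene, and on either strand in 13.6% of all windows. The Upk1a window held 0 CpG dinucleotides at 54.7% G and C, Upk3b held 2 at 58.7% and Upk3a held 9 at 52.3%, beside medians of 7 CpG and 52.7% G and C over all windows. A match is a description of letters and was not tested as a binding site.

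Dicer1, the targeted gene, had levels of 9.80, 9.72 and 9.64 in mutant cells, against 10.31, 10.38 and 10.25 in control cells, on the log2 scale of the deposited RMA values. Its log2 fold change, mutant minus control, was -0.59 (limma, adjusted p = 0.0005), and which of its probes lie in the deleted exons is not known here. Over all genes, 25.8% passed an adjusted p of 0.05 (limma, Benjamini-Hochberg), with 13.9% lower and 11.8% higher in the mutant (2690 and 2285 genes). Centring each array on its median gave 2241 lower and 2696 higher genes, and without mutant replicate 1 there were 1764 lower genes. Array medians ran from 7.47 to 7.54, and the correlation of 2 arrays over probe sets (Pearson's r, with probe sets not independent) was at least 0.996 within a genotype and at most 0.992 between genotypes. All 12 ureteric epithelium markers lay above the median of all probe sets, 7.51, in at least 1 group, whereas 1 of 8 renal stroma, 0 of 8 endothelial and 0 of 5 measured blood markers did. RMA assigns no value of 0 and the table holds no detection call, so a level below that median is called dim here and is not shown to be absent.

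Of the 10 urothelial genes, 8 fell in the mutant cells and 2 (Elf3 and Psca) did not pass, beside 13.9% of all genes that fell. On the same 8 genes every mutant array lay below every control array, which held for 24.1% of all genes. The median log2 fold change of the 10 genes was -0.96, beside -0.05 over all genes. The background among genes above the median brightness in at least 1 group, as 9 of the 10 were, was 20.7% lower. Because the genes were chosen with earlier results of these data known, no test over the list was made. In bulk RNA, fewer cells of a type and less RNA per cell cannot be told apart.

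**Figure D1:**
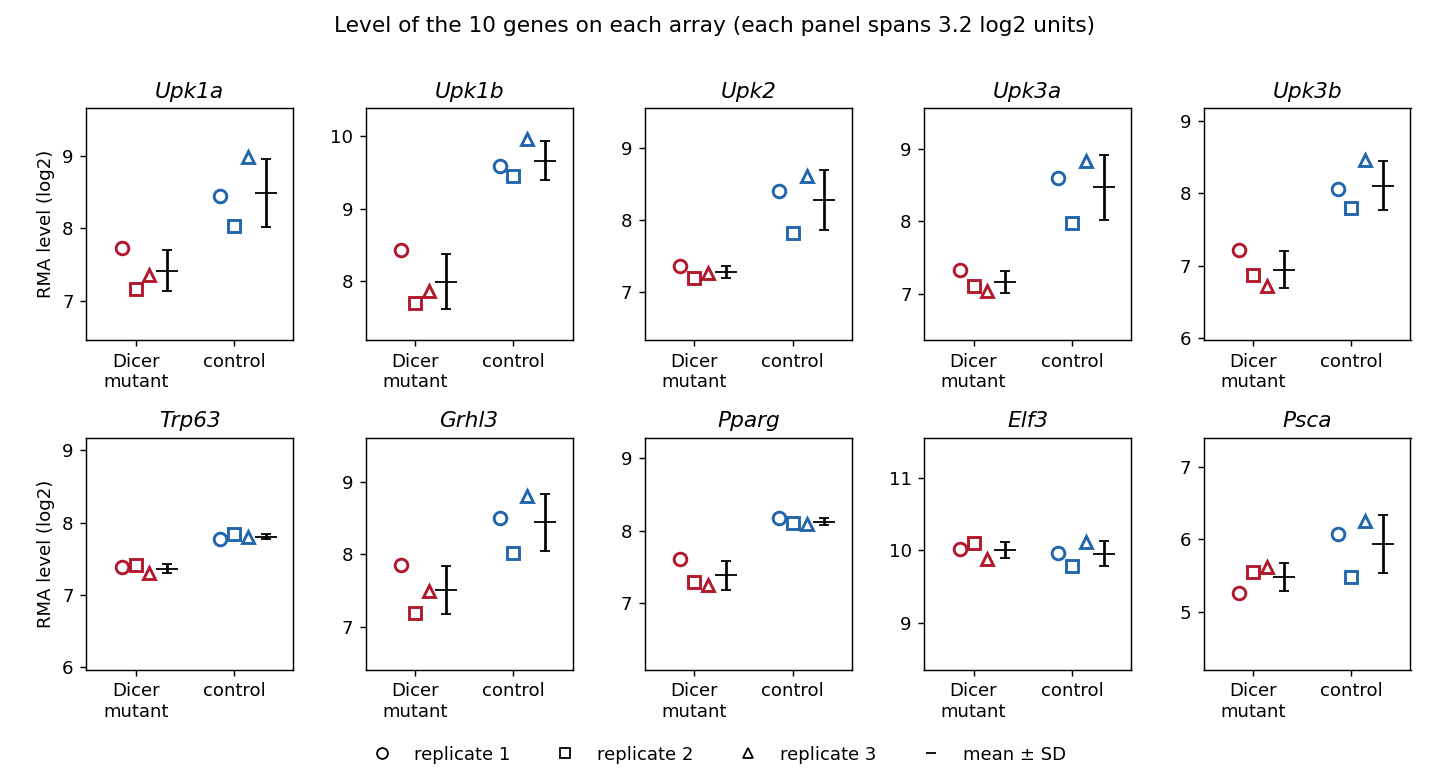
RMA level on the log2 scale (vertical axis) of each of the 10 genes on the 3 Dicer mutant arrays (left in each panel) and the 3 control arrays (right), with the group mean ± SD in black. The mutant arrays lie below all control arrays for the 5 uroplakins, Trp63, Grhl3 and Pparg, and the groups overlap for Elf3 and Psca.

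All 5 uroplakins fell, and 4 of them by more than 2-fold, a size of fall reached by 64 genes in all (0.332%). Upk1b, the tetraspanin partner of Upk3a and Upk3b, had levels of 8.42, 7.70 and 7.86 in mutant cells, against 9.59, 9.45 and 9.96 in control cells. The groups were 1.03 log2 units apart at their nearest arrays, the widest gap among the 10 genes. Its mean was 7.99 ± 0.38 in mutant cells and 9.67 ± 0.26 in control cells (SD, n = 3 each). The log2 fold change, mutant minus control, was -1.67 ± 0.20 (SE; 3.19-fold lower; limma, adjusted p = 0.000711). Among all 19296 genes this was the 8th most negative log2 fold change.

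Upk3a, a partner of Upk1b that is needed in the mouse for intact plaques, had levels of 7.33, 7.11 and 7.04 in mutant cells, against 8.60, 7.97 and 8.84 in control cells. The mutant arrays were close together and all below the median of all probe sets, while the control arrays were spread over 0.87 log2 units. The means of 7.16 ± 0.15 in mutant cells and 8.47 ± 0.45 in control cells (SD, n = 3 each) gave a log2 fold change of -1.31 ± 0.20 (SE; 2.48-fold lower; limma, adjusted p = 0.00238). Upk3b, the alternative partner of Upk1b, had levels of 7.22, 6.88 and 6.72 in mutant cells, against 8.06, 7.79 and 8.46 in control cells. All 3 mutant arrays were dim and the groups lay 0.57 log2 units apart. Its log2 fold change was -1.16 ± 0.18 (SE; 2.24-fold lower; limma, adjusted p = 0.00253).

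Upk1a, the other tetraspanin, had levels of 7.72, 7.17 and 7.36 in mutant cells, against 8.45, 8.04 and 8.98 in control cells. The groups did not overlap, but mutant replicate 1 came within 0.31 log2 units of control replicate 2. The log2 fold change was -1.07 ± 0.23 (SE; 2.11-fold lower; limma, adjusted p = 0.0113). Upk2, its partner, had levels of 7.37, 7.20 and 7.27 in mutant cells, against 8.40, 7.81 and 8.61 in control cells. The mutant arrays lay within 0.16 log2 units of each other, below all control arrays. Upk2 had a log2 fold change of -0.996 ± 0.18 (SE; 1.99-fold lower; limma, adjusted p = 0.00513).

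The size of the fall was compared between uroplakins by subtracting their log2 values on each array, which cancels a constant offset between probe sets. It does not cancel the compression of dim values by RMA, and Upk3a, Upk3b and Upk2 were dim on all 3 mutant arrays and Upk1a on 2 of them, whereas Upk1b was on none. In total 5 pairs were compared: the tetraspanins with each other, Upk3a with Upk3b, and the 3 partner pairs. Upk1b minus Upk1a was 0.70, 0.53 and 0.50 in mutant cells, against 1.14, 1.41 and 0.98 in control cells. The groups did not overlap, and the difference was lower in mutant cells by 0.60 log2 units, with a two-sided exact permutation p of 0.1 (adjusted p = 0.25 over the 5 pairs). A p of 0.1 is the smallest that this permutation test allows with 3 arrays against 3, so it cannot pass 0.05 whatever the values. Upk1b minus Upk3b also did not overlap between groups and differed by -0.51 (exact permutation p = 0.1, adjusted p = 0.25). Upk1b minus Upk3a differed by -0.36 (exact permutation p = 0.2), Upk3a minus Upk3b by -0.15 (exact permutation p = 0.3) and Upk1a minus Upk2 by -0.08 (exact permutation p = 0.7), all with overlapping arrays. Whether the size of the fall differed between partners is therefore not settled by this test.

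**Figure D2:**
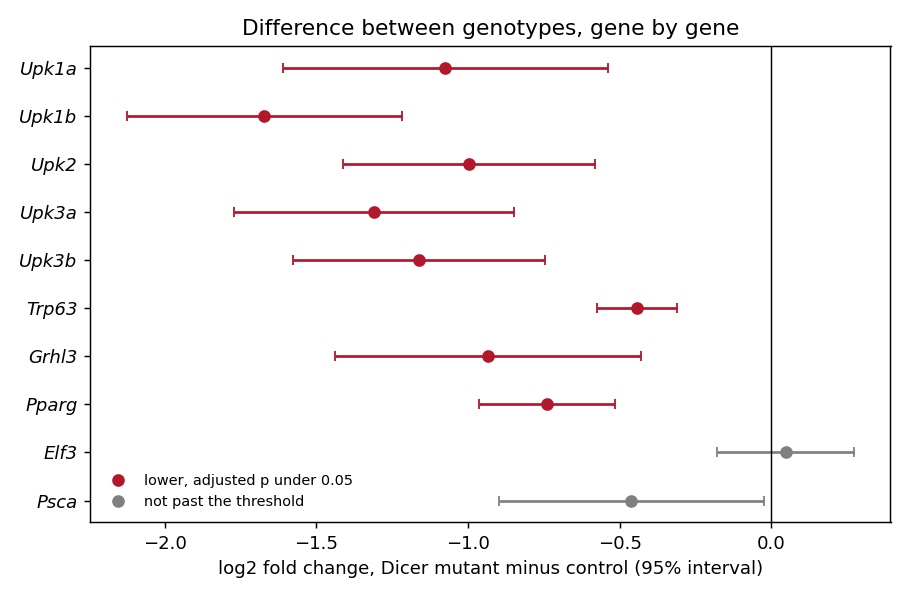
Log2 fold change of each gene, Dicer mutant minus control (horizontal axis), with its 95% interval from limma, in red where the gene fell past an adjusted p of 0.05 and in grey where it did not pass. Upk1b has the most negative value, -1.67, and the interval of Elf3 runs from -0.18 to 0.27.

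Of the 4 transcription factor genes, 3 fell and Elf3 did not pass. Grhl3, a grainyhead-like factor of barrier epithelia, had levels of 7.85, 7.19 and 7.49 in mutant cells, against 8.50, 8.02 and 8.81 in control cells. The highest mutant array lay 0.17 log2 units below the lowest control array, the narrowest gap among the 8 genes that fell. The mutant levels of 7.19 and 7.49 were dim. Grhl3 had a log2 fold change of -0.93 ± 0.22 (SE; 1.91-fold lower; limma, adjusted p = 0.016). The call was lost without mutant replicate 2 (log2 fold change -0.77, adjusted p = 0.0594) and without mutant replicate 3 (-0.92, adjusted p = 0.0516), and over its 13 alternatives the adjusted p ran from 0.00567 to 0.0594.

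Pparg, a nuclear receptor that pairs with retinoid X receptors, had levels of 7.61, 7.29 and 7.24 in mutant cells, against 8.17, 8.10 and 8.08 in control cells. The control arrays agreed within 0.09 log2 units and lay above every mutant array. The Pparg levels of 7.29 and 7.24 were dim. Its log2 fold change was -0.74 ± 0.10 (SE; 1.67-fold lower; limma, adjusted p = 0.00118). Trp63, the p63 gene, had levels of 7.38, 7.41 and 7.30 in mutant cells, against 7.77, 7.84 and 7.80 in control cells. Arrays of each genotype lay within 0.12 log2 units of each other, and every mutant array lay below every control array. Trp63 was dim on every mutant array, and RMA compresses differences of dim values. The log2 fold change was -0.44 ± 0.06 (SE; 1.36-fold lower; limma, adjusted p = 0.00113).

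Trp63 is a known target of miR-203, a miRNA of differentiating epidermis in the mouse, whose arm miR-203-3p is shown with its seed (bases 2 to 8) in capitals, from RefSeq.
mmu-miR-203-3p: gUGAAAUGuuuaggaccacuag
The mature miRNA was not measured on these arrays. The probe set of its gene, Mir203, had levels of 3.63, 3.90 and 3.74 in mutant cells, against 4.07, 3.87 and 3.65 in control cells. All of these values were dim and the groups overlapped (log2 fold change -0.11; limma, adjusted p = 0.527).

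Elf3 had levels of 10.03, 10.10 and 9.88 in mutant cells, against 9.97, 9.78 and 10.12 in control cells. The groups overlapped, and the log2 fold change of 0.05 had a 95% interval from -0.18 to 0.27 (limma, adjusted p = 0.756). Its sign turned without mutant replicate 2 and without control replicate 2. Psca, a glycolipid-anchored protein of the Ly6 family, had levels of 5.26, 5.55 and 5.62 in mutant cells, against 6.08, 5.48 and 6.25 in control cells. It was dim on all 6 arrays, and control replicate 2 lay within the mutant range. The log2 fold change was -0.46 with a 95% interval from -0.90 to -0.02 (limma, adjusted p = 0.116), and without control replicate 2 it was -0.69 and passed (adjusted p = 0.00939).

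The uroplakins also moved together between arrays of the same genotype. Among control arrays, replicate 3 was the highest and replicate 2 the lowest for all 5 uroplakins, Grhl3, Elf3 and Psca, that is for 8 of the 10 genes. This pattern was noticed in the values and is given as a description, and 12.8% of all genes had it. In mutant cells, replicate 1 was the highest for the 5 uroplakins, Grhl3 and Pparg, against 23.8% of all genes. This order too was noticed in the values of these genes, so the shares given here are no test of either pattern or of both. The 5 uroplakins and Grhl3 showed both patterns, which 3.06% of all genes did, and 4.45% of the 696 genes whose control arrays lay at least 0.5 log2 units apart. Trp63 showed neither, with control arrays within 0.07 log2 units, and Pparg did not follow the control pattern.

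**Figure D3:**
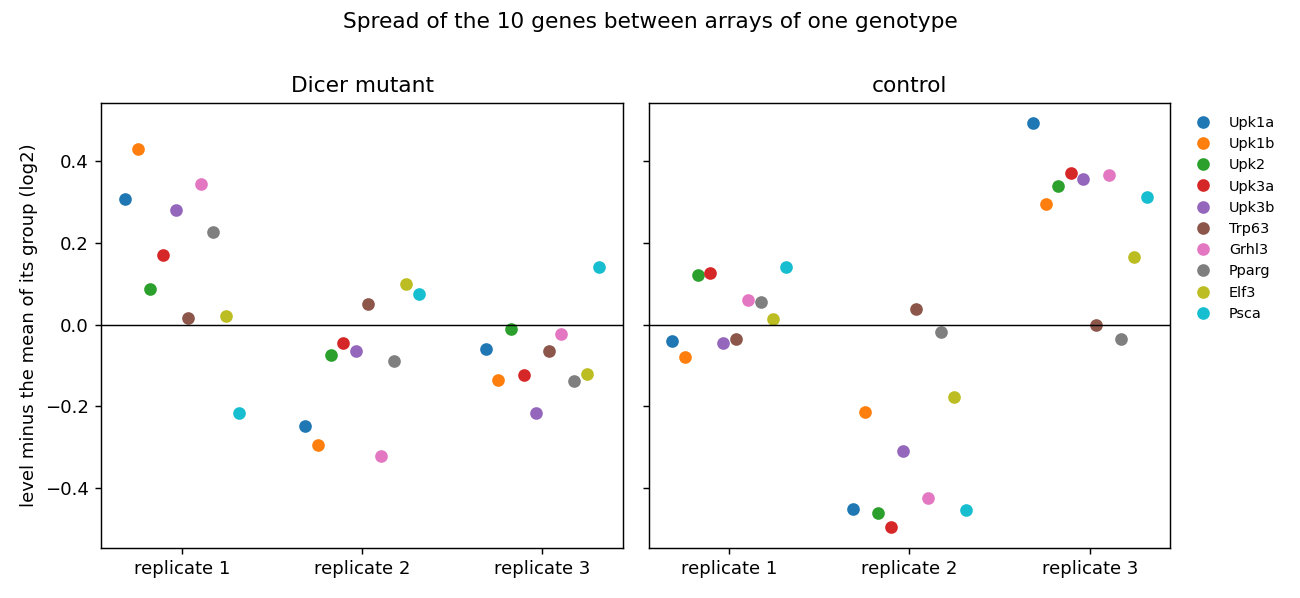
Level of each gene minus the mean of its genotype, on the log2 scale (vertical axis), for the 3 Dicer mutant arrays (left panel) and the 3 control arrays (right panel), with 1 coloured point per gene. Points of the uroplakins and Grhl3 lie above 0 on mutant replicate 1 and control replicate 3 and below 0 on control replicate 2, while Trp63 stays within 0.07 of 0.

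Summed on the linear scale, the 5 uroplakins gave 1030, 755 and 787 units in mutant cells, against 2109, 1661 and 2703 units in control cells. Every mutant sum lay below every control sum, and control replicate 3 had the highest. The 12 ureteric epithelium markers summed to 41210 to 42160 units in mutant cells and 46260 to 47340 units in control cells, with 6 of the 12 lower, such as Wnt11 (log2 fold change -0.60; limma, adjusted p = 0.000522), and 1 higher, Wnt9b. Cdh1 and Epcam, adhesion proteins of this epithelium, did not pass, with log2 fold changes of 0.03 and -0.10 (limma, adjusted p = 0.704 and 0.211). Among all genes above the median brightness in at least 1 group, as these 12 markers were, 20.7% fell.

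Markers of the muscle and mesenchyme of the ureter, which ensheathe its urothelium, were examined as other cells that the sort could hold. Of the 9 markers, 4 were lower and 5 did not pass, beside 13.9% lower over all genes. Their sum was 764 to 788 units in mutant cells and 888 to 1069 units in control cells. Acta2, smooth muscle actin, had a log2 fold change of -0.72 (limma, adjusted p = 0.0168) and Myh11, smooth muscle myosin, one of -0.33 (adjusted p = 0.0283). Tbx18, the defining transcription factor of ureteral mesenchyme, was dim with a log2 fold change of -0.05 (adjusted p = 0.632). Of the 9 markers, Acta2 alone lay above the median brightness in a group. Acta2 and Myh11 were, like the uroplakins, lowest among controls on replicate 2 and highest among mutants on replicate 1, but they were highest among controls on replicate 1. Tip markers fell in 7 of 8 genes, among them the chemokine receptor gene Cxcr4 (log2 fold change -0.80; limma, adjusted p = 6.27e-05) and the transcription factor gene Sox8 (-0.79, adjusted p = 0.000165). Of 8 trunk markers, those of the maturing collecting duct, 6 fell, such as the vasopressin receptor gene Avpr2 (-1.23, adjusted p = 2.56e-05). Wnt9b, the brightest of them in mutant cells, rose (1.42, adjusted p = 2.23e-05). The trunk sum was higher in mutant cells, at 4100 to 4444 units against 3676 to 4058 units in control cells. Wnt9b weighs most in that sum in mutant cells, so the higher sum is not a rise of the list as a whole. The median log2 fold change of the 8 trunk markers was -0.63. Among genes above the median brightness in at least 1 group, as all tip and trunk markers were, 20.7% fell.

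Cap mesenchyme, whose cells lie around the bud tips, had the largest relative shift in summed level among the 9 marker lists. Its 8 markers summed to 2329 to 2484 units in mutant cells and 1236 to 1250 units in control cells. Six2, the nephron progenitor factor, had levels of 10.31, 10.41 and 10.31 in mutant cells, against 6.99, 7.29 and 6.88 in control cells (log2 fold change 3.29; limma, adjusted p = 3.29e-06). Tmem100 rose as well (0.82, adjusted p = 0.00931), 1 of the 8 fell and 5 did not pass. The median log2 fold change of the 8 markers was -0.06. Six2 was the brightest of them in mutant cells and weighs most in their sum, so the shift in the sum is not one of the list as a whole. Of 7 measured proximal tubule and podocyte markers, 1 rose, the endocytic receptor gene Lrp2 (1.05, adjusted p = 0.000256), and 3 fell, among them the phosphate transporter gene Slc34a1 (-0.69, adjusted p = 0.0163). Of 5 measured blood markers, 1 fell, the leukocyte gene Ptprc (-0.45, adjusted p = 0.0155). Over all genes, 13.9% fell and 11.8% rose. Of 8 endothelial and 8 renal stroma markers, 0 passed in limma, with 1 and 1 at an unadjusted p under 0.05. The part of cell composition in the fall of the urothelial genes was not tested.

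Other genes of the urothelium were followed in lists of keratins and umbrella cell genes, transcription factors, and genes downstream of p63 and PPAR gamma. Of 14 keratins and umbrella cell genes, 8 fell, 1 rose and 5 did not pass, with a median log2 fold change of -0.26. Over all genes, 13.9% fell and 11.8% rose. The share that fell was 20.7% among genes above the median brightness in at least 1 group, as 9 of the 14 were. Mal, a raft protein of apical transport, Vamp8, a vesicle fusion protein, and Rab27b, a small GTPase of vesicle delivery to the apical membrane, had log2 fold changes of -0.86, -0.56 and -0.49 (limma, adjusted p = 0.000186, 0.000627 and 0.00339). Krt19 fell to 9.40, 8.85 and 8.41 in mutant cells, against 10.06, 10.08 and 10.08 in control cells (log2 fold change -1.19, adjusted p = 0.00457). Krt7, a simple epithelial keratin, was the gene of this list that rose, by 0.21 (adjusted p = 0.0445). Krt20, the keratin of mature umbrella cells, was dim in both groups and did not pass (log2 fold change -0.07, adjusted p = 0.508), nor did Upk3bl, a relative of Upk3b (-0.15, adjusted p = 0.171).

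Of 13 other urothelial transcription factors, 6 fell, 2 rose and 5 did not pass, beside 13.9% lower and 11.8% higher over all genes. The share that fell was 20.7% among genes above the median brightness in at least 1 group, as 11 of the 13 were. Ovol1, a zinc finger factor of epithelial differentiation, had a log2 fold change of -0.92 (limma, adjusted p = 0.00148), and Ehf, an ETS factor related to Elf3, one of -0.73 (adjusted p = 0.000104). The retinoic acid receptor gene Rarg fell (-0.67, adjusted p = 0.000827), whereas Rarb rose (0.43, adjusted p = 0.00117). Grhl1 and Grhl2, the paralogues of Grhl3, did not pass, with log2 fold changes of -0.19 and 0.12 (adjusted p = 0.131 and 0.188).

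In the lists downstream of p63 and PPAR gamma, 4 of 14 and 2 of 12 measured genes passed in either direction, beside 25.8% of all genes. Of 14 basal cell and p63 target genes, 1 fell, 3 rose and 10 did not pass, with a median log2 fold change of -0.07. Sfn, the 14-3-3 sigma gene, rose by 0.66, the integrin gene Itgb4 by 0.33 and the plakin gene Dst by 0.26 (limma, adjusted p = 0.00313, 0.0163 and 0.00911). Cd44, a hyaluronan receptor, had a log2 fold change of -0.47 (adjusted p = 0.0111). The basal keratins Krt5 and Krt14 were dim in both groups and did not pass (adjusted p = 0.329 and 0.302). Of 12 measured PPAR gamma targets, 1 fell and 1 rose: the fatty acid binding protein gene Fabp4, with -0.50 (adjusted p = 0.0373), and the lipid droplet gene Plin2, with 0.45 (adjusted p = 0.00189). Only 2 of these 12 lay above the median brightness, which limits what the list can show.

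Relatives of the members by protein family were compared as well. Of 23 measured tetraspanins other than Upk1a and Upk1b, 8 fell, 1 rose and 14 did not pass, with a median log2 fold change of -0.12. Over all genes 13.9% fell, and 20.7% of those above the median brightness, as 18 of the 23 were. Tspan8 fell by 1.06 on the log2 scale (limma, adjusted p = 0.00313), and the widely expressed Cd9 by 0.37 (adjusted p = 0.00342). Tspan31 had -0.43 (adjusted p = 0.000827) and Tspan18 rose by 0.33 (adjusted p = 0.00302). Of 14 measured Ly6 genes other than Psca, 5 fell and 9 did not pass, with a median of -0.20. Only 3 of these 14 had a group mean above the median brightness, and Ly6h and Lypd2 were not among them. The paralogues Lypd6b and Lypd6 had log2 fold changes of -0.78 and -0.61 (adjusted p = 0.000372 and 0.00116), Ly6h one of -0.58 (adjusted p = 0.000374) and Lypd2 one of -0.51 (adjusted p = 0.0028).

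**Figure D4:**
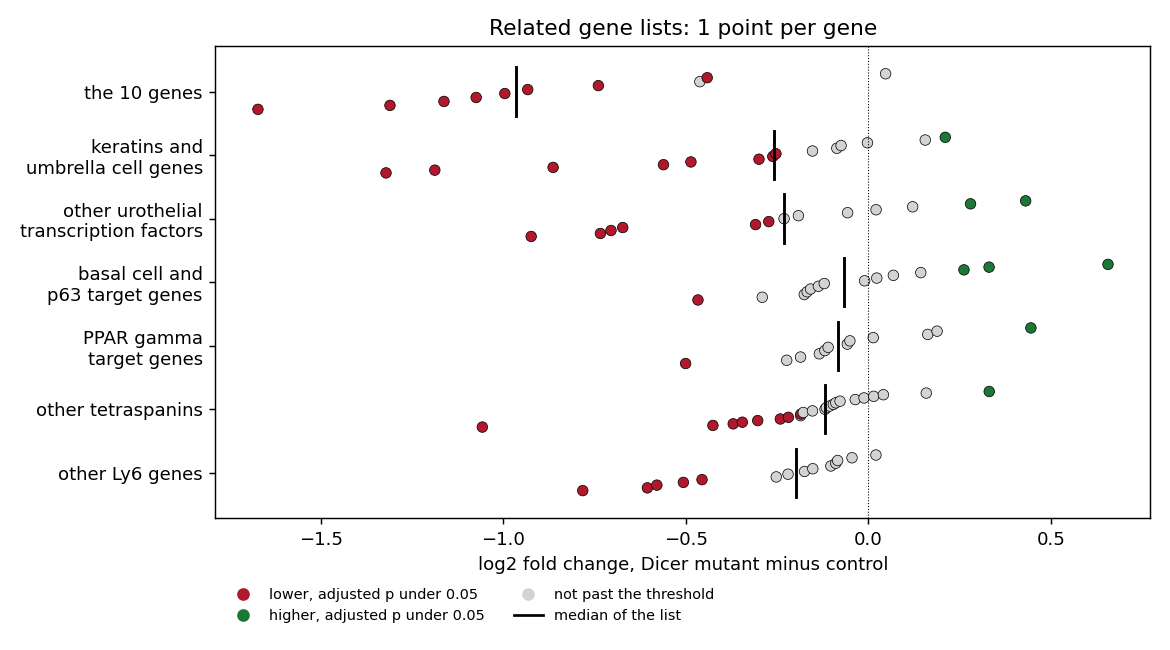
Log2 fold change, Dicer mutant minus control (horizontal axis), with 1 point per gene in the 10 urothelial genes and 6 related lists, coloured by the limma call, and a black line at the list median. The median is -0.96 for the 10 genes and lies between -0.26 and -0.07 for the related lists.

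Genes outside the members were ranked by how like their array profiles were to those of Upk3a, Upk1b and Trp63. The measure was the root mean square difference of profiles centred on their mean over the 6 arrays. Members were left out of the ranking, so other uroplakins could not appear in it. For Upk3a the nearest was Snx31, a sorting nexin of umbrella cells that binds uroplakins, at 0.135 log2 units. Snx31 had levels of 6.91, 6.34 and 6.46 in mutant cells, against 7.85, 7.43 and 8.40 in control cells. It was highest on mutant replicate 1 and control replicate 3 and lowest among controls on replicate 2, as the uroplakins were, and its log2 fold change was -1.32 (2.5-fold lower; limma, adjusted p = 0.00527). Snx31 was picked for its closeness to Upk3a on these same arrays, so this order and this fall are no separate evidence. Next came Fgf12 at 0.198 and Aldh1a7 at 0.199 log2 units.

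For Upk1b the nearest genes were Adh1, an alcohol dehydrogenase that oxidises retinol, at 0.178 log2 units, Snx31 at 0.226 and the GABA receptor subunit gene Gabrg1 at 0.247. For Trp63 they were Cuta at 0.0213, Decr2 at 0.0228 and Yipf1 at 0.0232 log2 units. The measure includes the difference between genotypes and the order of arrays within a genotype, and it says nothing of shared function.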

How the data were processed

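The authors deposited log2 values, 1 for each probe set and array. The submitters' processing notes name RMA and affy; for versions, genome build and filters, nothing is given in the sources used here. RMA is made to equalise array distributions, which removes a shift shared by most transcripts, and it compresses differences of dim genes. The deposited values were not fully equalised. Their array medians ran from 7.475 to 7.536, and the median log2 fold change over all genes was -0.052. Of 23309 probe sets, 20728 had 1 symbol in the platform annotation, and keeping the brightest per symbol left 19296 genes. A linear model with genotype as its term was fitted to all of them with lmFit and eBayes of limma 3.58.1 (R 4.3.3), with Benjamini-Hochberg adjustment over all genes, a threshold of 0.05 and two-sided tests; the fit was tested on simulated data. Linear sums are of 2 to the power of the values. The members and lists were chosen with earlier results of these data known. The motifs and Krt5, Krt14, Krt20, Krt7, Upk3bl, Grhl1, Grhl2, Mir203, Tbx18, Cdh1 and Epcam were chosen after values were seen. The text otherwise names all members, Dicer1, up to 4 called genes per related list and up to 2 per marker list by smallest p. It also names the 3 nearest profiles of Upk1b, Upk3a and Trp63 among genes outside the members. A list gene lacking its own probe set was not analysed here. Alternatives were a replicate block, leaving out each array, quantile normalization, centring arrays on their median, removal of dim genes, averaging the probe sets of a gene, eBayes with trend and robust settings, weights per array, and thresholds of 0.01 and 0.1. At most 22 values were identical between any 2 arrays. The number of arrays limits the precision. Figures were drawn with matplotlib 3.10.9.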

Additional observations from a re-analysis of the deposited data

How the results depend on the processing

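Of the 10 genes, 7 to 9 passed when an array was left out (7 without mutant replicate 2 or 3, where Grhl3 was lost, and 9 without control replicate 2, where Psca was gained), 6 passed at an adjusted p of 0.01, and 8 passed under each of the other alternatives. The 5 uroplakins, Trp63 and Pparg kept their direction and an adjusted p under 0.05 under all 13 alternatives to the fit, with an adjusted p of at most 0.0482 (Upk1a). The log2 fold change of Upk1b ran from -1.89 to -1.52 and that of Upk2 from -1.23 to -0.83. The sign of Elf3 turned without mutant replicate 2 (-0.0027) and without control replicate 2 (-0.0419), with a range of -0.0419 to 0.1298 over the arrays left out. The difference Upk1a minus Upk2 turned to 0.0077 without mutant replicate 2, with a range of -0.19 to 0.0077 over the arrays left out. At an adjusted p of 0.01, 2790 genes passed (1423 lower, 1367 higher), and 24 of the 90 genes of the related lists in place of 37. Leaving out an array gave 1764 to 2973 lower genes, the fewest without mutant replicate 1, in place of 2690. Centring arrays on their median turned the balance of calls over all genes to 2241 lower and 2696 higher. Same-numbered arrays of the groups deviated with correlations of -0.225, -0.085 and -0.191, so the numbers were not taken to pair the samples. With the replicate block 3603 genes and 8 of the 10 members passed. Psca was dim and was not among the genes kept when dim genes were left out.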
